A study of Mus musculus with 6 samples.

Results

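Olfactory receptor genes sit side by side in long arrays, and open chromatin was examined here across 3 of these arrays, on mouse chromosomes 2, 7 and 9. The peaks of 6 ATAC-seq lists were merged wherever they overlapped by 1 bp or more, and a merged region was kept when its midpoint lay in a window of the mm9 build. The windows run from 85200000 to 89600000 on chromosome 2 (4.4 Mb), from 109800000 to 113000000 on chromosome 7 (3.2 Mb) and from 37700000 to 39900000 on chromosome 9 (2.2 Mb). They held 70, 141 and 41 regions in that order, which makes 252 of 149724 regions, or 0.168%. The rest of the same chromosomes held 11345, 7793 and 6734 regions and served as the comparison.

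Olfactory receptors are the odour sensors of the nose and form the largest gene family of the mouse. An olfactory sensory neuron expresses a single receptor gene and keeps the others shut in compact chromatin that carries repressive histone methylation, and the family is largely silent in most other cell types. ATAC-seq cuts DNA with a transposase that reaches open chromatin, so a peak marks an accessible stretch such as an active promoter or enhancer, and a long span with no peak is the usual picture of inactive chromatin.

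The libraries came from pro-B cell lines, which are cultured precursors of B lymphocytes. CBE_1 and CBE_2 carry IgH alleles with a mutated IGCR1, a control region of the immunoglobulin heavy chain locus on chromosome 12, and are labelled IGCR1-/-, while WT carries the intact region. All 3 lines are RAG2-deficient, so none can start recombination of its antigen receptor genes, and all come from bone marrow of strain 129SV and were left untreated. Each line has 2 libraries of 200000 cells, numbered here in accession order, and nothing says that the 2 came from separate cultures, so p-values measure only the spread between these libraries, which may be technical. Both mutated lines are set against 1 WT line, and genotype cannot be told apart from other differences between the lines.

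The lists held 72318 and 80242 peaks in CBE_1, 94665 and 97522 in CBE_2, and 112241 and 106056 in WT, and the read depth behind them is unknown. Since the mutated lists are shorter over the whole genome, the densities below are read as a ratio of the window to the rest of its own chromosome in the same list. The lists carry no gene names, and the only gene table used here follows build GRCm38.p6 rather than mm9. No region was therefore assigned to a gene, and neither the gene content of the windows nor the pro-B markers of the lines could be checked.

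To show what kind of DNA fills such an array, promoters were taken from RefSeq, build GRCm38.p6, for the longest run of Olfr genes on each chromosome in gene order. The 6 stretches below are the 120 bases before an annotated start, 5′ to 3′ on the gene's own strand, with each CpG in capitals. Each Olfr promoter is the one nearest the median GC content of its run, and the promoter under it belongs to the first protein-coding gene with a promoter entry after the run. Where that gene has several entries, the first listed was taken, and any other promoter of the gene is not shown.

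Olfr141 (chromosome 2, minus strand): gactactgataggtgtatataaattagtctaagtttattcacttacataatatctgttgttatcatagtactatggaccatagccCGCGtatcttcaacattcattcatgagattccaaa
Ptprj (chromosome 2, minus strand): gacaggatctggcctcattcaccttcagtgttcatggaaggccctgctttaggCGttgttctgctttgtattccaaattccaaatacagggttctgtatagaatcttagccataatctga
Olfr589 (chromosome 7, minus strand): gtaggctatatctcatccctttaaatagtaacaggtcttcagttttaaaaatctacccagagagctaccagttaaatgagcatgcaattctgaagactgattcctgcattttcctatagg
Gm5901 (chromosome 7, plus strand): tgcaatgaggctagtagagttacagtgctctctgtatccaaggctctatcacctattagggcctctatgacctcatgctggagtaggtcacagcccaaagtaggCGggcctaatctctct
Olfr912 (chromosome 9, plus strand): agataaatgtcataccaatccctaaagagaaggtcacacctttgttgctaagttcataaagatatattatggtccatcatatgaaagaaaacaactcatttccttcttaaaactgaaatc
Zfp202 (chromosome 9, plus strand): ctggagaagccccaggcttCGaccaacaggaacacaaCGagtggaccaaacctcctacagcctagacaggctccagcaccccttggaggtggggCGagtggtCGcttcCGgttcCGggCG

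The stretch before Olfr141 holds 2 CpG and those before Olfr589 and Olfr912 hold none, with GC contents of 32.5%, 37.5% and 31.7% in that order. The stretch before Zfp202, a zinc finger gene, has 7 CpG and a GC content of 63.3%. The stretches shown for Ptprj, a receptor-type tyrosine phosphatase gene, and Gm5901 have 1 CpG each, fewer than that of Olfr141, and 43.3% and 50.0% GC. Over 300 bases, 250 before and 50 after the start, the 376 promoters of 374 Olfr genes in the 3 runs had a median GC content of 34.0% and a median of 1 CpG. The other 6990 promoters of the same chromosomes had 53.8% GC and 8 CpG. No CpG at all was found in 33.5% of the Olfr promoters, against 4.66% of the others. Many of the annotated Olfr starts may be starts of the coding sequence, as described below. The GC and CpG contents given for Olfr genes may then not be those of their true promoters.

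Ebf1 is a transcription factor required for the B lineage, and its family has also been described at promoters of olfactory genes. The core of the palindrome bound by this family, TCCC, any 2 bases and GGGA, reads the same on both strands. It was found in 0 of the 376 Olfr promoters and in 76 of the other 6990 promoters (1.09%), or 297 of all 32851 (0.904%). In 70.2% of the Olfr promoters the annotated start is directly followed by ATG, the start codon, against 4.19% of the other promoters of these chromosomes. For such genes the annotated start may be that of the coding sequence and the window then does not reach the true promoter, so the absence of the core letters says nothing about binding by this family.

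In gene order, the run on chromosome 2 held 293 Olfr genes, 71 of them pseudogenes, and 3 other protein-coding genes, Fads2b, Pramel7 and Pramel6. The run on chromosome 7 held 158 Olfr genes, 32 of them pseudogenes, with 27 other protein-coding genes among them. These include 12 Trim genes, a family with members that act in antiviral defence, and the 5 Hbb genes, which code for the beta chains of haemoglobin. The run on chromosome 9 held 127 Olfr genes and 3 others, Vwa5a, AW551984 and Tmem225. Gene order in GRCm38.p6 gives the neighbours only, and the positions of these genes against the mm9 windows were not analysed here.

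Peaks were sparser in all 3 windows than in the rest of their chromosomes, by far the most on chromosome 2, less on chromosome 9 and least on chromosome 7. Counted as merged regions, the windows held 15.9 per Mb on chromosome 2, against 65.1 in its rest, 18.6 against 56.7 on chromosome 9, and 44.1 against 53.3 on chromosome 7. In every library and every window the density was below that of the rest.

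**Figure D1:**
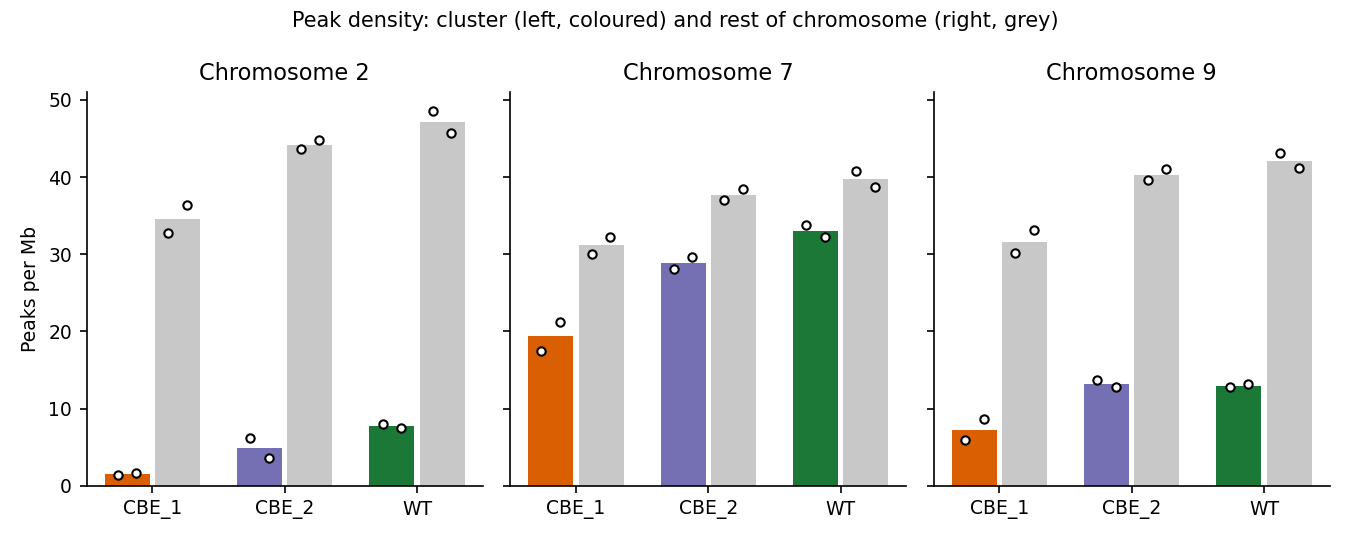
Peaks per Mb (vertical axis, linear, from 0) in each window (coloured bars, by line) and in the rest of the same chromosome (grey bars beside them), for CBE_1, CBE_2 and WT. Bars are the mean of the 2 libraries and circles are the libraries. The coloured bar is lower than its grey bar in all 9 pairs, and the chromosome 2 bars are the lowest, at 1.48 peaks per Mb in CBE_1, 4.89 in CBE_2 and 7.73 in WT.

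On chromosome 2, the window held 6 and 7 peaks in the CBE_1 libraries, 27 and 16 in CBE_2, and 35 and 33 in WT. Per Mb this is 1.36 and 1.59 in CBE_1, where the rest of the chromosome had 32.7 and 36.3. CBE_2 had 6.14 and 3.64 peaks per Mb in the window and 43.6 and 44.8 in the rest, and WT had 7.95 and 7.50 in the window and 48.6 and 45.7 in the rest. The log2 ratio of window to rest averaged −3.46 ± 0.92 (SD, n = 6), which is 11.0-fold lower in the window. It was below 0 in 6 of 6 libraries (exact two-sided paired permutation test, p = 0.03125, the smallest that 6 libraries can give, adjusted p = 0.0455 by Benjamini-Hochberg over 16 tests).

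On chromosome 9, the window held 13 and 19 peaks in CBE_1, 30 and 28 in CBE_2, and 28 and 29 in WT. The densities were 5.91 and 8.64 peaks per Mb in CBE_1, 13.6 and 12.7 in CBE_2, and 12.7 and 13.2 in WT, while the rest of the chromosome had 30.2 to 43.1 over the 6 libraries. CBE_1 was lowest here too, and the CBE_2 and WT libraries overlapped. The log2 ratio averaged −1.82 ± 0.29 (SD, n = 6, 3.53-fold lower in the window, below 0 in 6 of 6 libraries, exact paired permutation p = 0.03125, adjusted p = 0.0455).

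Chromosome 7 was closest to its surroundings. Its window held 56 and 68 peaks in CBE_1, 90 and 95 in CBE_2, and 108 and 103 in WT. In peaks per Mb, CBE_1 had 17.5 and 21.2 in the window and 30.1 and 32.2 in the rest, CBE_2 had 28.1 and 29.7 in the window and 37.0 and 38.4 in the rest, and WT had 33.8 and 32.2 in the window and 40.8 and 38.7 in the rest. The log2 ratio averaged −0.45 ± 0.20 (SD, n = 6, 1.36-fold lower, below 0 in 6 of 6 libraries, exact paired permutation p = 0.03125, adjusted p = 0.0455). With the 3 windows pooled it averaged −1.58 ± 0.28 (SD, n = 6), or 3.00-fold lower, with the same exact permutation p and adjusted p.

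The windows were not evenly empty, and on chromosome 7 only a part of the window was poor in peaks. Blocks of 400 kb were joined into stretches after their counts were seen, so the stretches are a description. On chromosome 7 the first 1200 kb held 10 regions, 8.33 per Mb, and the 800 kb from 111800000 to 112600000 held 7, or 8.75 per Mb. Between them, the 800 kb from 111000000 to 111800000 held 51 regions, 63.8 per Mb, and the last 400 kb of the window, from 112600000 on, held 73, or 182.5 per Mb. Both dense stretches exceed the 53.3 regions per Mb of the rest of the chromosome. Without the last 400 kb, a choice made after seeing the data, the log2 ratio of chromosome 7 averaged −1.30 (exact paired permutation p = 0.03125, n = 6).

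**Figure D2:**
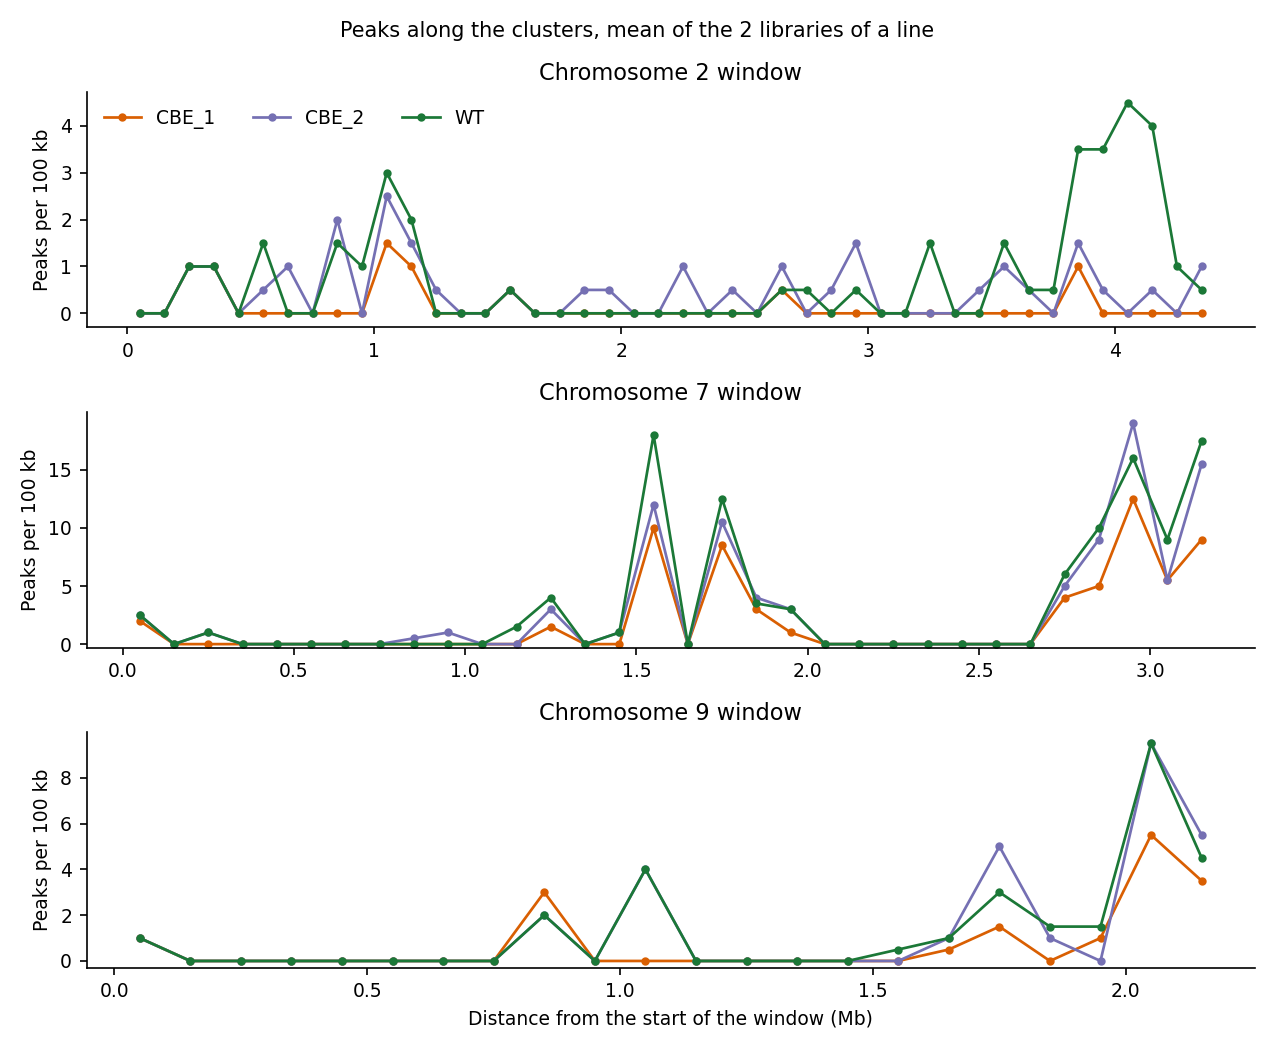
Peaks per 100 kb (vertical axes, linear, scaled separately for each window) against distance from the window's start in Mb, as the mean of the 2 libraries of CBE_1, CBE_2 and WT. Long spans lie at 0 in all 3 lines, and the peaks gather around 1 Mb and 4 Mb on chromosome 2, between 1.5 and 2 Mb and near the end on chromosome 7, and in the last part of chromosome 9.

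The other windows were also denser towards their end. On chromosome 9 the first 1600 kb held 11 regions, 6.88 per Mb, and the last 600 kb held 30, or 50.0 per Mb. The first 3600 kb of the chromosome 2 window held 42 regions, 11.7 per Mb, and the last 800 kb held 28, or 35.0 per Mb. The end of the chromosome 9 window comes near the 56.7 regions per Mb of its rest, and that of chromosome 2 stays well below the 65.1 of its own. The windows were set by coordinates, and whether these end stretches still lie within the gene arrays was not tested.

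Intervals of more than 100 kb with no region in any of the 6 lists made up 59.0% of the length of the chromosome 2 window, 64.4% on chromosome 7 and 63.6% on chromosome 9. The longest on chromosome 9 ran from 37740560 to 38524452, 783.9 kb, and was the seventh longest of the 6774 intervals of that chromosome. It starts beside a region at 37740071 to 37740559 that is present in all 6 libraries, and ends at a 225 bp region, 38524453 to 38524677, found in CBE_1 replicate 1 alone. On chromosome 7 the longest ran from 111796026 to 112520744, 724.7 kb, and ranked 18 of 7933. It starts beside a region missing from both CBE_1 libraries, at 111795586 to 111796025, and ends at one found in all 6, at 112520745 to 112522387. The longest on chromosome 2 ran from 87155442 to 87481384, 325.9 kb, and ranked 41 of 11414, and the regions at both its ends were each found in a single CBE_2 library. The chromosome 2 window was thus broken up by scattered regions rather than by a few blocks, with 14 intervals over 100 kb and a median interval of 28.0 kb, against 3.01 kb in its rest.

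In bins of 100 kb, 34.1% of the 44 bins on chromosome 2 held no region of any library, against 18.6% of the rest. Taken by library, the share of empty bins there was 88.6% and 84.1% in CBE_1, 56.8% and 68.2% in CBE_2, and 59.1% and 61.4% in WT. CBE_1 left the most bins empty, and the other lines overlapped. The share of bins empty in every library was 50.0% on chromosome 7, against 35.6% in its rest, and 54.5% on chromosome 9, against 23.4% in its rest.

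The few peaks on chromosomes 2 and 9 were also narrower and weaker than the peaks around them, while on chromosome 7 neither difference passed the test. Median peak width on chromosome 2 was 309 and 356 bp in CBE_1, 324 and 292.5 bp in CBE_2, and 274 and 309 bp in WT, while the rest of the chromosome had 454 to 476 bp. All 6 window medians fell below all 6 medians of the rest. The log2 ratio of the medians averaged −0.59 ± 0.11 (SD, n = 6, 1.50-fold narrower, exact paired permutation p = 0.03125, adjusted p = 0.0455). On chromosome 9 the medians were 331 and 364 bp in CBE_1, 371.5 and 379.5 bp in CBE_2, and 408.5 and 401 bp in WT, against 462 to 486 bp in the rest, a log2 ratio of −0.34 ± 0.13 (SD, n = 6, exact paired permutation p = 0.03125, adjusted p = 0.0455). This did not hold with the better 50% of each list, where it was −0.17 (exact paired permutation p = 0.09375). On chromosome 7 they were 466.5 and 484.5 bp in CBE_1, 467 and 481 bp in CBE_2, and 482 and 459 bp in WT, against 482 to 501 bp in the rest (log2 ratio −0.05 ± 0.04, SD, n = 6, narrower in 5 libraries and equal in 1, exact paired permutation p = 0.0625, adjusted p = 0.0833).

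Strength was read as rank, the percentile of a peak's deposited −log10 p-value within its own list, where 100 is the strongest peak. The median percentile on chromosome 2 was 39.2 and 47.7 in CBE_1, 9.77 and 16.4 in CBE_2, and 30.4 and 28.8 in WT, while the rest of the chromosome stood at 49.7 to 51.8. The CBE_2 peaks there were the weakest, and the 6 and 7 peaks of CBE_1 came closest to the rest. The difference averaged −22.0 ± 13.7 percentile points (SD, n = 6, lower in 6 of 6, exact paired permutation p = 0.03125, adjusted p = 0.0455). With the better 50% of each list it averaged −5.14 (exact permutation p = 0.25).

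On chromosome 9 the median percentile was 42.6 and 36.7 in CBE_1, 36.4 and 38.4 in CBE_2, and 49.0 and 43.9 in WT, against 53.0 to 55.6 in the rest. Every window median was below every median of the rest, by −13.0 ± 4.03 points (SD, n = 6, exact paired permutation p = 0.03125, adjusted p = 0.0455). On chromosome 7 it was 54.2 and 54.1 in CBE_1, 51.0 and 50.2 in CBE_2, and 55.0 and 52.9 in WT, against 52.4 to 55.6 in the rest, and the groups overlapped (−0.85 ± 1.97 points, SD, n = 6, exact paired permutation p = 0.344, adjusted p = 0.367).

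How far the windows lay below the rest was also compared between lines, where 4 mutated against 2 WT libraries allow only 15 regroupings and no p under 0.133. The chromosome 2 ratio of window to rest density was 0.0417 and 0.0438 in CBE_1, 0.141 and 0.0812 in CBE_2, and 0.164 and 0.164 in WT. All 4 mutated libraries lay below both WT libraries, CBE_1 at 0.260 times and CBE_2 at 0.652 times the WT ratio. The mean log2 ratio of the mutated libraries minus that of WT was −1.28 (exact permutation p = 0.133, the smallest this design allows, adjusted p = 0.427 over 16 tests). In peaks, CBE_1 kept 19.1% of the WT number inside the window and 73.3% of it in the rest of the chromosome, and CBE_2 kept 63.2% inside and 93.8% in the rest.

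On chromosome 7 the ratio was 0.582 and 0.660 in CBE_1, 0.760 and 0.773 in CBE_2, and 0.828 and 0.832 in WT, again with all mutated libraries below WT (mean log2 difference −0.27, exact permutation p = 0.133, adjusted p = 0.427). On chromosome 9 it was 0.196 and 0.261 in CBE_1, 0.344 and 0.311 in CBE_2, and 0.296 and 0.320 in WT. There CBE_1 lay below WT while CBE_2 and WT overlapped (mean log2 difference of the 4 mutated libraries −0.18, exact permutation p = 0.667, adjusted p = 0.985). With the same number of peaks taken from each list, 72318, the chromosome 2 difference was −1.15 (exact permutation p = 0.133).

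Most of the chromosome 2 regions were seen once. Of its 70 regions, 42 (60.0%, Wilson 95% interval 48.3 to 70.7) were present in 1 library, against 27.4% of the rest of the chromosome. On chromosome 7 it was 43 of 141 (30.5%), against 24.1% of the rest, and on chromosome 9 it was 10 of 41 (24.4%), against 23.9%. Over the 3 windows 95 of 252 regions, 37.7%, were found in 1 library, and 27.9% of all 149724 regions were. Intervals cover counting error only, and neighbouring regions are not independent. With lists trimmed to 72318 peaks each, 27 regions were found in 1 library. Of the 95, CBE_1 gave 4 and 2, CBE_2 gave 25 and 17, and WT gave 25 and 22.

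By library, regions that no other library holds made up 16.7% and 14.3% of the chromosome 2 window in CBE_1, 51.9% and 31.2% in CBE_2, and 34.3% and 27.3% in WT, against 4.51% to 12.3% in the rest. The difference averaged 21.8 ± 12.5 percentage points (SD, n = 6, higher in 6 of 6, exact paired permutation p = 0.03125, adjusted p = 0.0455). It did not pass the threshold on chromosome 7 (1.74 ± 3.66 points, SD, n = 6, exact paired permutation p = 0.3125, adjusted p = 0.357) or on chromosome 9 (0.319 ± 5.44 points, SD, n = 6, exact paired permutation p = 0.906, adjusted p = 0.906). These regions were as narrow in the windows as elsewhere, with a median of 239 bp against 237 bp in the rest, close to the 200 bp minimum of the lists. The chromosome 2 difference was smaller without the weaker peaks. With the same number of peaks per list it averaged 8.98 points (exact permutation p = 0.0625), and with the better 50% of each list 2.34 points (exact permutation p = 0.875).

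**Figure D3:**
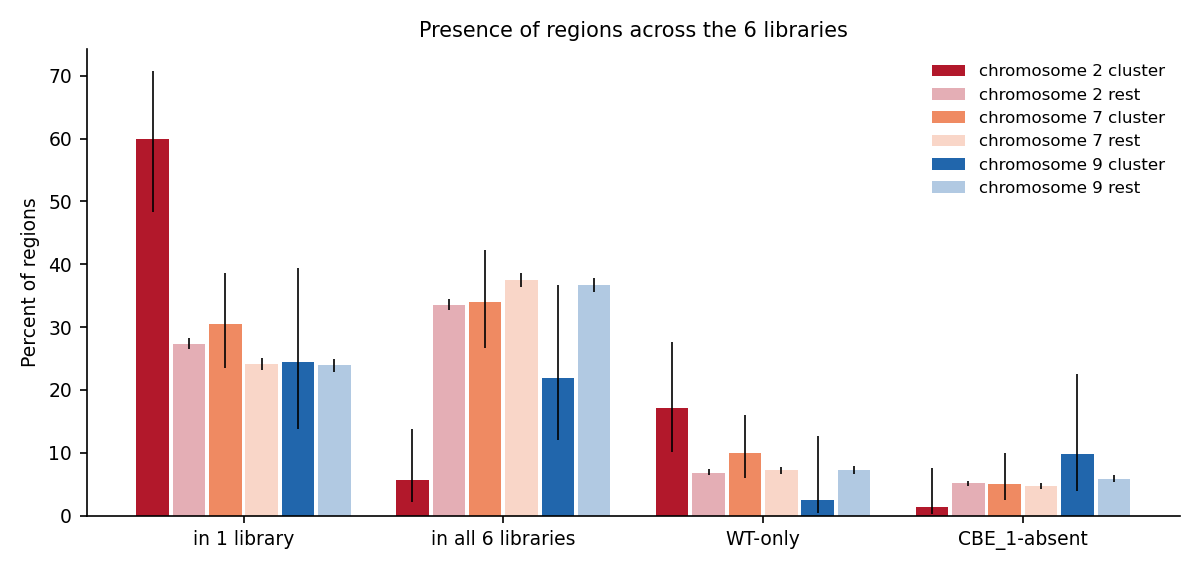
Percent of regions (vertical axis, linear, from 0) found in 1 library, in all 6, in both WT libraries alone (WT-only), or in all but the 2 CBE_1 libraries (CBE_1-absent), for each window (dark bars) and the rest of its chromosome (pale bars). Lines are Wilson 95% intervals. On chromosome 2 the 1-library bar stands at 60.0% against 27.4%, and the all-6 bar at 5.71% against 33.5%.

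At the other end, 61 regions (24.2%) were present in all 6 libraries, against 31.9% of all regions. They were 4 of 70 on chromosome 2 (5.71%, against 33.5% of its rest), 48 of 141 on chromosome 7 (34.0%, against 37.5%) and 9 of 41 on chromosome 9 (22.0%, against 36.7%). Their median width was 953 bp, against 1057 bp in the rest.

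Ordered by the percentile in the library where each ranks lowest, the first of the 4 on chromosome 2 lies at 86268384 to 86269269 and is 886 bp wide. Its deposited fold over background was 16.6 and 14.7 in CBE_1, 17.7 and 16.8 in CBE_2, and 16.8 and 16.9 in WT, so the lines overlapped. The next, 35.1 kb further on at 86304347 to 86305299, had folds of 7.54 and 8.03 in CBE_1, 9.93 and 8.91 in CBE_2, and 11.3 and 9.56 in WT. Both lie in the hump around 1 Mb in the plot of peaks along the windows.

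By the same order, the first 3 shared regions of chromosome 7 lie at 112546929 to 112549672, 112958245 to 112960822 and 112891916 to 112893853, the last 2 in the dense end stretch. The first had folds of 33.6 and 25.6 in CBE_1, 27.1 and 27.0 in CBE_2, and 24.5 and 27.1 in WT at percentile 98.9 or higher of every list. All 3 are 1938 bp wide or wider and stood at percentile 96.9 or higher in every list. On chromosome 9 the first, at 39712405 to 39713584, had folds of 19.3 and 16.8 in CBE_1, 18.3 and 17.5 in CBE_2, and 19.0 and 17.7 in WT. The next, at 38525194 to 38527560, had 8.60 and 8.55 in CBE_1, 12.0 and 9.45 in CBE_2, and 11.0 and 11.1 in WT.

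Of the patterns that divide the lines, WT-only was the most frequent over the windows together, as it was among all regions. WT-only regions, held by both WT lists and by no mutated list, numbered 27 of 252 (10.7%), against 8.68% of all regions. By window they were 12 of 70 on chromosome 2 (17.1%, Wilson 95% interval 10.1 to 27.6, against 6.87% of its rest), 14 of 141 on chromosome 7 (9.93%, against 7.21%) and 1 of 41 on chromosome 9 (2.44%, against 7.20%). Over the windows together their share is near the background (Wilson 95% interval 7.47 to 15.1), and so is that on chromosome 7. On chromosome 9, CBE_1-absent regions, 4 of 41, outnumbered the WT-only one. When each list was trimmed to its 72318 strongest peaks, 14 of the window regions were WT-only. The share of all regions under that trim was not computed.

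On chromosome 2, 9 of the 12 lie in the last 800 kb of the window, between 89035819 and 89380587. Those 800 kb hold 28 of the window's 70 regions. That stretch held 1 and 1 peaks in CBE_1, 5 and 3 in CBE_2, and 18 and 18 in WT. In the 3600 kb before it the counts were 5 and 6 in CBE_1, 22 and 13 in CBE_2, and 17 and 15 in WT, so there CBE_2 and WT overlapped. The strongest WT-only region, at 89249265 to 89250498, is 1234 bp wide and had folds of 7.47 and 8.24 in WT, at percentiles 74.1 and 75.3. The next lies 68.3 kb before it, at 89179834 to 89180965, with folds of 6.17 and 6.37, and another at 89380263 to 89380587 had 4.44 and 5.49.

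The same stretch holds the shared region with the largest rank difference on chromosome 2, at 89036391 to 89037309. Its folds were 6.48 and 8.86 in CBE_1, 15.7 and 14.3 in CBE_2, and 25.1 and 26.7 in WT. To compare ranks across lines, each fold was also ranked, within its library, against the 47767 regions that every library holds, as a percentile. On that scale it stood at 49.6 and 61.1 in CBE_1, 79.6 and 77.5 in CBE_2, and 98.8 and 99.4 in WT, with no overlap between the 3 lines and a mean difference of −32.2 points, mutated minus WT. Directly beside it, 285 bp away, lies a WT-only region at 89035819 to 89036105, with folds of 3.14 and 3.08.

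Seen over all 61 shared regions, 15 (24.6%) ranked below WT, meaning that every mutated library had a lower percentile than either WT library, and 20.1% of the 47767 shared regions did so. Above WT in the same sense were 5 (8.20%), against 20.3%. The first share is near that of all shared regions and the second is below it. In the rest of chromosomes 2, 7 and 9, 16.1% of shared regions ranked below WT and 23.6% above. Against that rest the first share is higher, and the difference was not tested. The median difference was −1.24 points over the 61, against 0.20 over all shared regions and 1.27 in the rest of these chromosomes. Of the 15, 13 lie on chromosome 7, which holds 48 of the 61 shared regions, and make up 27.1% of those 48. Of these 13, 8 lie in the dense stretch from 111000000 to 111800000, where none ranked above WT. That stretch holds 17 shared regions and was drawn after its counts were seen.

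**Figure D4:**
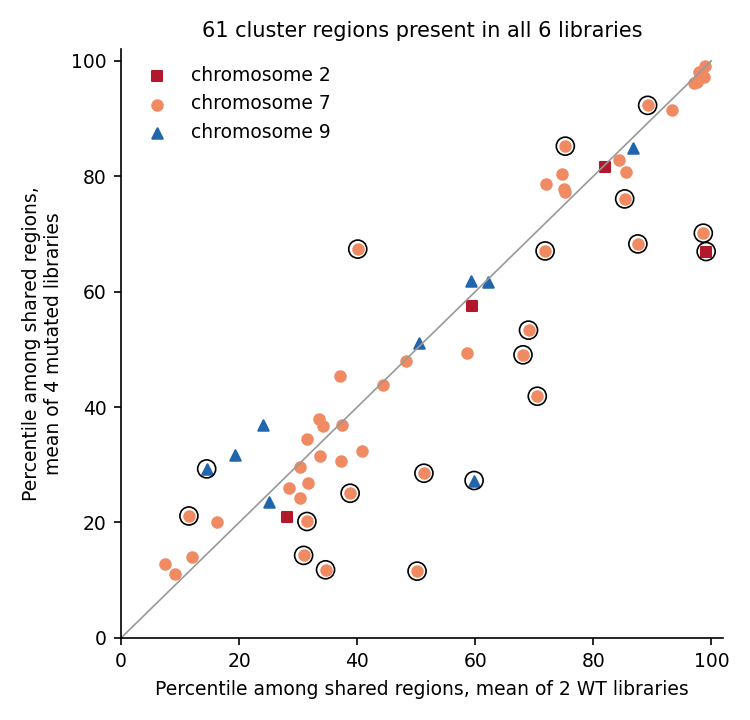
Mean percentile in the 4 mutated libraries (vertical axis) against that in the 2 WT libraries (horizontal axis) for the 61 window regions present in all 6 libraries, by chromosome. The line marks equal values, and ringed points rank above WT or below WT in every mutated library: 5 lie above the line and 15 below it.

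The largest of these differences on chromosome 7 belonged to the first of a pair of neighbours 120 bp apart. The first, at 111315314 to 111317683, had folds of 3.32 and 3.44 in CBE_1, 3.92 and 4.08 in CBE_2, and 8.22 and 8.57 in WT, and percentiles of 9.30 and 11.4 in CBE_1, 11.8 and 13.8 in CBE_2, and 49.1 and 51.1 in WT. The second, at 111317804 to 111319808, had folds of 10.4 and 12.5 in CBE_1, 13.9 and 11.9 in CBE_2, and 24.9 and 25.1 in WT. Their mean differences were −38.6 and −28.5 points, and both mutated lines lay well below WT at each. Over the next 37.2 kb, counted from the start of the second region, 5 WT-only regions follow, at 111325035 to 111325617 and at starts 111341204, 111352214, 111353221 and 111354420. Their folds were low, from 2.64 to 3.63 in the WT libraries.

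The same block also held the single region found in all 4 mutated libraries and in neither WT library (0.397% of the 252, against 1.52% of all regions). It lies at 111382883 to 111384225, is 1343 bp wide, and had folds of 5.73 and 4.59 in CBE_1 and 5.03 and 6.66 in CBE_2. It lies 63.1 kb beyond the pair that ranked below WT. The strongest WT-only region of the chromosome 7 window lies further on, at 111543014 to 111543407, and its WT folds were 5.73 and 5.16.

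In the last 400 kb of the chromosome 7 window, 3 of the 25 shared regions ranked below WT and 4 above. Neither share exceeds that of all shared regions, 20.1% below and 20.3% above. At 112729398 to 112730473 the deposited fold was 8.44 and 6.36 in CBE_1, 15.6 and 15.8 in CBE_2, and 6.82 and 6.92 in WT. Its fold in CBE_1 thus lay on either side of WT, and on the percentile scale among shared regions it stood at 59.7 and 47.8 in CBE_1, 79.2 and 82.7 in CBE_2, and 39.5 and 40.7 in WT. At 112776770 to 112778554, 46.3 kb on, the folds were 5.58 and 6.15 in CBE_1, 6.38 and 6.44 in CBE_2, and 13.6 and 13.2 in WT, a difference of −28.6 points.

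All 3 CBE_2-only regions of chromosome 7 lie in this stretch, which holds 73 of the window's 141 regions. Found in both CBE_2 libraries and no other, they lie at 112715173 to 112715581, 112728987 to 112729281 and 112734329 to 112734606. Their folds ran from 2.33 to 2.90, at percentiles of 0.655 to 20.8, so they are among the weakest peaks of their lists. The last 2 flank the shared region at 112729398 described above. Over the 3 windows CBE_2-only regions numbered 7 (2.78%), against 3.14% of all regions. None of the 252 was CBE_1-only (Wilson 95% upper bound 1.50%), against 0.667% of all regions.

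CBE_1-absent regions, missing from both CBE_1 libraries and present in the other 4, numbered 12 (4.76%), against 5.05% of all regions, and the share is near the background. With the better 50% of each list there were 7, and 1 region was CBE_2-only. On chromosome 9 there were 4 of 41, and 3 of these stand in a row over 4.16 kb, at 38758256 to 38758737, 38759814 to 38760498 and 38760786 to 38762416. The last, 1631 bp wide, had folds of 5.64 and 6.66 in CBE_2 and 6.71 and 7.25 in WT. The middle one had 5.03 and 3.97 in CBE_2 and 6.28 and 6.70 in WT, and the first had 3.19 and 3.65 in CBE_2 and 4.00 and 3.85 in WT. This group lies in the otherwise sparse first 1600 kb and is the place where the CBE_1 line of the plot along chromosome 9 stays at 0 near 1 Mb.

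Nearer the start of the chromosome 9 window, the shared region at 38535508 to 38536331 also ranked lower in the mutated lines. Its folds were 2.87 and 4.17 in CBE_1, 6.74 and 6.66 in CBE_2, and 10.6 and 10.3 in WT, and its percentiles among shared regions 2.00 and 23.3 in CBE_1, 41.6 and 42.1 in CBE_2, and 60.4 and 59.2 in WT. The order was CBE_1 lowest, then CBE_2, then WT, with no overlap. The shared region 7.95 kb before it, at 38525194 to 38527560, did not rank below WT in this sense.

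The reverse was seen at 39811171 to 39811736, with folds of 3.77 and 4.17 in CBE_1, 6.13 and 6.33 in CBE_2, and 4.11 and 4.50 in WT. It ranked 14.8 points higher in the mutated lines on average, although its folds in CBE_1 and WT overlapped. CBE_2-only regions of chromosome 9 were 3 of 41 (7.32%, against 3.77% of its rest). They are a pair at 39410125 to 39410417 and 39410684 to 39411272 and 1 at 39748490 to 39748796, with folds of 2.57 to 4.05. The single CBE_2-absent region of the windows (0.397%, against 0.653% of all regions) lies at 39602940 to 39603285, with folds of 3.32 and 2.92 in CBE_1 and 3.14 and 2.97 in WT. The single WT-only region of chromosome 9, at 39441575 to 39441870, had 2.70 and 3.08 in WT.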

How the data were processed

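ATAC-seq was done on 200000 cells per library with 11 PCR cycles and sequenced as single reads, per the labels' protocols. Per the submitters' processing notes, Trimmomatic, Bowtie2, SAMtools and Picard were used with build mm9; no versions are listed. The sources used here do not give the peak caller, its settings or any shift of reads for the cutting enzyme, and a missing shift would move edges by a few bases, alike in all lists. The authors deposited 1 peak list per library, with a score, a fold over background (a ratio), a −log10 p-value and a −log10 q-value for each peak. These are the authors' own values and were used only to describe or rank peaks within a list. The deposited score was not used. No counts are given, so the depth is unknown.

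Merged regions were assigned by midpoint. The 3 windows, the regions and the lists were chosen with earlier results of these data known. Peaks per Mb, median width and median percentile used every peak whose region lay in a window. Windows were compared with the rest of their chromosome by exact two-sided sign-flip permutation tests over the 6 libraries, with Benjamini-Hochberg adjustment over 16 tests and a threshold of 0.05, and lines by an exact permutation test of 4 mutated against 2 WT libraries. Regions were never used as replicates. The 2 libraries of a line are not independent of each other in the first test. Percentiles of ranks in the window comparison use −log10 p, and those among shared regions use the fold. Named regions are, per window, the 3 shared regions with the highest lowest percentile, up to 3 of each line-specific pattern by the same measure, the longest empty interval with its flanks, and the 3 largest and 3 smallest shared differences. Other regions near these, such as the weaker WT-only regions, were named after their values were seen. An Olfr run allowed at most 25 other genes between Olfr genes. Merging and counting recovered every pattern in simulated lists of well separated regions. Those lists held no close neighbours and no region with several peaks of a library, so they do not test merging in such places. Python 3.11.15, pandas 2.3.3, numpy 2.4.6, scipy 1.17.1, statsmodels 0.14.6 and matplotlib 3.10.9 were used.

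Alternatives were the better 50% of each list, lists trimmed to 72318 peaks, merging within 100 bp, borders moved by 200 kb, other rankings and leaving out each library. Coordinates are 1-based mm9 positions.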

Additional observations from a re-analysis of the deposited data

Results flagged for a closer look

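In 4 comparisons WT lay between the mutated lines: each CBE_1 library stood to one side of the pair of WT values and each CBE_2 library to the opposite side. The difference between CBE_1 and CBE_2 was not tested. The 4 mutated libraries together against the 2 WT libraries gave an exact permutation p of 1 for both measures on chromosome 2 and of 0.8 for both on chromosome 7. For the median peak percentile on chromosome 2, window minus rest, the values were −11.56 and −2.768 points in CBE_1, −39.92 and −33.76 in CBE_2, and −21.42 and −22.81 in WT. The CBE_1 values rest on 6 and 7 peaks. On chromosome 7 the same measure was 1.874 and 1.112 points in CBE_1, −2.619 and −2.537 in CBE_2, and −0.6087 and −2.323 in WT.

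The share of regions that no other library holds differed in the opposite sense. On chromosome 2 the excess over the rest of the chromosome was 10.68 and 9.773 percentage points in CBE_1, 44.39 and 23.98 in CBE_2, and 21.98 and 20.02 in WT. On chromosome 7 it was −2.194 and −2.972 points in CBE_1, 4.425 and 6.222 in CBE_2, and 1.751 and 3.19 in WT. CBE_1 has the shortest lists of the 3 lines, at 72318 and 80242 peaks, and the part of list length in these differences was not tested.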

How the results depend on the processing

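The lower density of every window kept its direction and p = 0.03125 (exact paired permutation test, n = 6) under each full-library alternative, with log2 ratios from −4.10 to −2.90 on chromosome 2, −1.30 to −0.43 on chromosome 7 and −2.74 to −1.44 on chromosome 9. With the better 50% of each list, the pooled width ratio was −0.12 (exact permutation p = 0.0625), and the excess of 1-library regions became −0.718 points pooled, −0.582 on chromosome 7 and −2.45 on chromosome 9. Counts then were 13 WT-only, 1 CBE_2-only, 7 CBE_1-absent and 0 CBE_2-absent regions, 35 in all 6 libraries and 8 in 1. With 72318 peaks per list they were 14 WT-only, 1 CBE_1-only, 2 CBE_2-only, 0 CBE_2-absent and 27 in 1 library, and the excess on chromosome 7 was −1.05 points. Fewer weak peaks enter both by construction, and the shares of all regions were not computed for them. With borders 200 kb inward the rank difference was −4.39 pooled (exact permutation p = 0.0625) and 0.17 on chromosome 7, and the cause was not tested. Apart from left-out libraries, 52 tested values that answer a comparison kept their direction and their side of the threshold. So did 28 of single windows, and 15 counts stayed within 1.5 times of those reported. The tests of mutated against WT libraries among them cannot go below 0.133, so they could not change side. Ranking by fold and using a peak's own midpoint returned the reported values. The pooled excess of 1-library regions counts as kept, yet it fell from 4.49 points to 0.019 with 72318 peaks per list.

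Leaving out a library leaves 5, and no paired test can then go below 0.0625. The log2 density ratio ran from −1.64 to −1.50 pooled, −3.63 to −3.24 on chromosome 2, −0.48 to −0.38 on chromosome 7 and −1.88 to −1.71 on chromosome 9, the pooled width ratio from −0.18 to −0.13, the pooled rank difference from −5.88 to −3.98, and the excess of 1-library regions on chromosome 9 from −2.79 to 1.36 points, below 0 without WT replicate 1 (−0.02), WT replicate 2 (−2.79) or CBE_1 replicate 1 (−0.639). Patterns that ask for fewer libraries then grow by construction, to 28 to 54 WT-only (49 and 54 without a WT library), 1 to 3 mutated-only, 0 to 4 CBE_1-only, 7 to 32 CBE_2-only (24 and 32 without a CBE_2 library), 13 to 24 CBE_1-absent (24 without CBE_1 replicate 2, 19 without CBE_2 replicate 1) and 1 to 3 CBE_2-absent regions, 5 to 12 shared regions above WT (12 without CBE_1 replicate 1, 11 and 8 without WT replicate 1 or 2) and 16 to 22 below. No paired analysis was possible because the labels give no replicate numbers that pair libraries across lines. Depth is unknown, and how well the single reads could be placed in the windows was not tested. A missing peak is thus not shown to be closed chromatin.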
